A study of Mus musculus with 2 samples.

Results

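The collagen chains on a mouse bead array were followed in 2 samples. One was a fibroblast culture on gold nanoparticles (AuNPs) under an electromagnetic field (EMF), and the other a control fibroblast culture. A gene was taken as a collagen chain when its symbol in the platform annotation was Col, a number, a and a number. This gave 37 of the 16593 named genes and 59 of the 25697 probes on the array. The labels give 1 array for EMF+AuNPs and 1 for Control and name no other agent, and the strain, tissue of origin, passage, field strength and exposure time are not given in the sources used here. Neither AuNPs nor EMF was applied alone, so the values describe the combined exposure. With 1 array per condition there is no replicate error, and the conditions could not be tested against each other. Every difference below is a description of these 2 cultures, and the number of arrays limits its precision.

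Collagens are the main structural proteins of connective tissue. Each molecule is a triple helix of chains with glycine at regular steps along each chain, made from one chain type or from several. Fibrillar collagens (types I, II, III, V, XI, XXIV and XXVII) pack into the fibres that carry tension. Type IV chains form the sheet of the basement membrane, and type VI chains form beaded microfibrils around cells. Fibril-associated collagens sit on the surface of the fibres and link them to other matrix. Smaller classes form short-chain networks, anchor epithelia, span the membrane or carry heparan or chondroitin sulphate chains near basement membranes. Fibroblasts are the chief source of types I, III, V and VI in most tissues.

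The fibroblast label was set against marker genes. All 13 fibroblast markers in the annotation, such as Pdgfra, Thy1 and Dcn, were detected on both arrays. Their median difference was -0.09 (log2, EMF+AuNPs minus Control), with a summed intensity of 130527 with EMF+AuNPs and 141824 in Control. Of the 13, 9 (69.2%) lay below 0, such as S100a4 at -0.49 and Vim at -0.37, and 4 above, such as Tcf21 at 0.30. Of all detected genes, 44.0% lay below 0. Macrophage and leukocyte markers were present too. Of 12 in the annotation, 10 were detected, 9 of them on both arrays, with a median difference of 0.07 and a summed intensity of 161314 with EMF+AuNPs and 153743 in Control. Of these 10 markers 7 were higher with EMF+AuNPs, such as Cd52 at 0.80 and Fcer1g at 0.30. The 3 lower were Lyz2, Clec7a and Ptprc, the last detected in Control alone with a bound of -0.51. Clec7a differed by -2.54, -2.05 and -1.88 on its 3 probes. Adgre1, counted as higher at 0.06, differed by 0.13 and -1.38 on its other probes. The probes of the lysozyme gene Lyz2 differed by -0.11, 0.15 and 0.75, and Itgam and Cd74 were not detected on either array. Other lists were detected in part. Of 11 endothelial markers, 5 were detected (Tek, Emcn, Eng, Vwf and Egfl7) and Pecam1, Cdh5 and Kdr were not. Of 8 epithelial markers, Krt14 and Krt8 were detected and Cdh1 and Krt5 were not. Of 11 cartilage and bone markers, 4 were detected (Sox9, Alpl, Col2a1 and Col10a1, the last 2 being collagens) and Acan and Matn1 were not. Of 6 glial and neuronal markers, Map2 was detected and Tubb3 and Snap25 were not. In such bulk RNA, fewer cells of a type and less RNA per cell cannot be told apart. The part of RNA from other cell types in the collagen values was not tested.

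Detection was judged by the deposited detection p, which ranks a probe's signal among the negative-control beads of its array, with a limit of 0.01. Detection began at an intensity of 181.5 with EMF+AuNPs and 187.0 in Control. Of the 37 collagen genes, 25 (67.6%) had a detected probe, against 52.1% of all named genes. A total of 24 were detected on both arrays, 1 (Col10a1) in Control alone and 0 with EMF+AuNPs alone. The 12 that were not detected on either array were Col11a1, Col11a2, Col4a3, Col4a4, Col4a6, Col6a6, Col9a1, Col9a3, Col19a1, Col13a1, Col17a1 and Col25a1. They include both type XI chains of cartilage, some type IX and type IV chains and the hemidesmosome chain Col17a1. Another 8 chains of the class list (Col6a3, Col6a4, Col6a5, Col8a1, Col12a1, Col20a1, Col21a1 and Col22a1) were not among the genes named in the platform annotation. They were therefore not analysed here. Absence of a call means a signal not above background and sets no level for the transcript.

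Most detected collagens were slightly lower with EMF+AuNPs, and few were far apart between the arrays. The median log2 difference of the 25 genes was -0.15, and 19 of them (76.0%) lay below 0. Over all 8651 detected genes the median was 0.03 and 44.0% lay below 0. At a limit of 1.5-fold, 4 collagens were lower with EMF+AuNPs, where the share of all detected genes was 2.91%, and 2 were higher, where it was 3.34%. No collagen differed by 2-fold in either direction, a limit that 0.485% of all genes passed downwards and 0.52% upwards. The count of lower collagens was 2 without background correction and in the deposited log2 values, where Col5a3 and Col10a1 lay under the limit. The share of all detected genes that were lower by that limit was 1.6% in both. A single collagen, Col10a1, enters these counts with a bound, since it was detected on 1 array, and without it 18 of 24 lay below 0. Col3a1, whose 2 probes went opposite ways, is counted by its brighter probe, and without it 18 of 24 (75.0%) lay below 0 and the counts past 1.5-fold stayed at 4 and 2. Most fibroblast markers (9 of 13) and markers of some other cell types lay below 0 as well. All 5 detected adipocyte markers of 7 lay below 0, with a median of -0.36 and a summed intensity of 19590 with EMF+AuNPs and 25702 in Control. Of 8 smooth muscle and pericyte markers, 6 were detected, with a median of -0.23 and a summed intensity of 74387 with EMF+AuNPs and 75864 in Control. Among them Myh11 differed by -0.85 and Tagln by -0.42, and the probes of Acta2 by 0.03, -0.14, -1.03 and -1.17. Their part in the collagen values was not tested.

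The differences were read against a robust SD, the scaled median absolute deviation of the differences of genes of like brightness. It was between 0.31 and 0.38 (log2) for the dimmest collagens and 0.14 for the brightest. Real differences between the cultures enter this spread across genes along with noise, so it cannot stand in for replicates. By this yardstick 10 of the 25 collagens lay within 1 robust SD of 0, against 66.1% of all genes detected on both arrays, and 7, with the bound of Col10a1 counted, lay beyond 2 robust SDs, against 8.12%. Genes detected on both arrays were split into 20 bins of brightness. The 6 collagens in the brightest bin, Col1a1, Col5a1, Col4a1, Col4a2, Col6a1 and Col16a1, all lay below 0, where 46.2% of the genes in that bin did and their median was 0.01. Above the median brightness of the genes detected on both arrays, 13 of 16 collagens lay below 0 (81.2%, and 12 of 15 without Col3a1). Of all detected genes above it, 45.9% did. Below that median 6 of 9 collagens lay below 0 (66.7%), against 42.3% of all detected genes there.

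**Figure D1:**
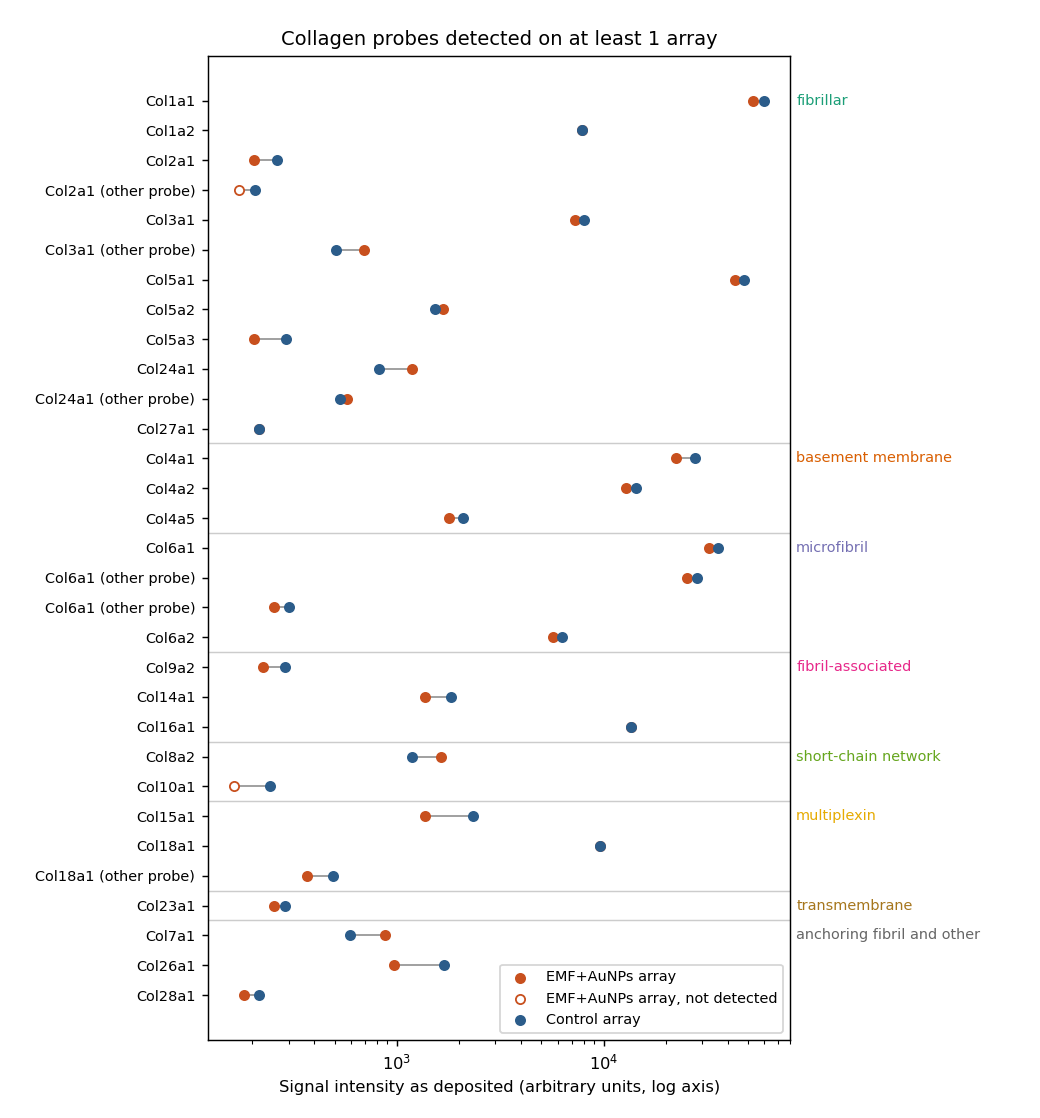
Deposited intensity (log axis) of the 31 collagen probes detected on at least 1 array, by class, with EMF+AuNPs in orange and Control in blue and open circles where the probe was not detected on that array. Most pairs lie close together with the EMF+AuNPs point to the left, and Col7a1, Col8a2, Col24a1 and a second Col3a1 probe have it clearly to the right.

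The fibrillar class held 9 detected genes of 11, with a median difference of -0.15, 6 below 0 and 3 above. The median was -0.08 without Col3a1 and -0.01 with the mean over each gene's detected probes, so it rests on which probes are counted. Col1a1, the alpha 1 chain of type I collagen, had an intensity of 52685 with EMF+AuNPs and 59628 in Control, a difference of -0.15 after normalization. Col1a2, the alpha 2 chain of the same molecule, had 7883 with EMF+AuNPs and 7862 in Control, a difference of -0.01. The 2 chains of type I collagen thus differed from each other by -0.14 (Col1a1 minus Col1a2), less than their combined robust SD of 0.22. Both Col1a1 values lie near the top of the scale, where the highest intensity of any probe was 68139 with EMF+AuNPs and 69257 in Control.

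Type III collagen, which shares fibres with type I in elastic tissues, gave values that depended on the probe. The brighter Col3a1 probe had an intensity of 7239 with EMF+AuNPs and 8069 in Control, a difference of -0.15. The dimmer one had 694.4 with EMF+AuNPs and 507.3 in Control, a difference of 0.66. The probes went opposite ways, so Col3a1 has no settled direction, and their mean was 0.25.

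Type V collagen, which sets the diameter of type I fibres, likewise had chains that lay apart. Col5a1, present in nearly all forms of the molecule, had 43135 with EMF+AuNPs and 47738 in Control, a difference of -0.15. Col5a2, its usual partner, had 1671 with EMF+AuNPs and 1529 in Control, a difference of 0.18. Col5a3, a chain of more restricted expression, had 205.0 with EMF+AuNPs and 289.7 in Control, a difference of -0.72 or 1.64-fold lower. The gap between Col5a1 and Col5a2 was -0.33, with a combined robust SD of 0.24, and that between Col5a2 and Col5a3 was 0.90, with 0.43. Col5a3 is dim, and without background correction its difference was -0.42, under 1.5-fold.

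The remaining fibrillar genes are best known from cartilage, bone and cornea. Col24a1, a fibrillar chain of developing bone and cornea, had 1184 with EMF+AuNPs and 822.2 in Control, a difference of 0.66 or 1.58-fold higher. A second Col24a1 probe had 573.4 with EMF+AuNPs and 530.2 in Control, a difference of 0.25. The mean of both was 0.45, which is under 1.5-fold, so the call rests on the brighter probe. Col2a1, the chain of cartilage fibres, was close to the detection limit, with 203.0 with EMF+AuNPs and 262.2 in Control, a difference of -0.51 with a robust SD of 0.38. Its other probe, at 172.7 with EMF+AuNPs and 205.7 in Control, was detected in Control alone, with a bound of -0.26. Col27a1 was equally dim and had 215.7 with EMF+AuNPs and 216.6 in Control, a difference of 0.12 after normalization with a robust SD of 0.31.

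Type IV collagen of the basement membrane was lower for each of its 3 detected chains, with a median of -0.20. Col4a1 had an intensity of 22476 with EMF+AuNPs and 27601 in Control and a difference of -0.28, with a robust SD of 0.14. Col4a2, which joins it in the common type IV molecule, had 12847 with EMF+AuNPs and 14374 in Control, a difference of -0.15. Col4a5, the X-linked chain found in kidney and skin, had 1781 with EMF+AuNPs and 2086 in Control, a difference of -0.20. None passed 1.5-fold, and the gap between Col4a1 and Col4a2 of -0.13 was less than their combined robust SD of 0.20. The genes Col4a1 and Col4a2 are neighbours transcribed away from each other, and their promoters are shown because both were lower. Each window runs from 250 bases before to 50 after the start that RefSeq gives on GRCm38.p6 (chr8:11312777-11313076, minus strand, for Col4a1 and chr8:11312555-11312854, plus strand, for Col4a2). The windows share 78 bases. Capitals mark the motifs searched for on both strands, namely the TATA box as TATAAA, the CAAT box as CCAAT, the GC box as GGGCGG and the AP-1 site as TGANTCA, where N is any base. No match of one motif overlapped a match of another in the windows printed here.
Col4a1: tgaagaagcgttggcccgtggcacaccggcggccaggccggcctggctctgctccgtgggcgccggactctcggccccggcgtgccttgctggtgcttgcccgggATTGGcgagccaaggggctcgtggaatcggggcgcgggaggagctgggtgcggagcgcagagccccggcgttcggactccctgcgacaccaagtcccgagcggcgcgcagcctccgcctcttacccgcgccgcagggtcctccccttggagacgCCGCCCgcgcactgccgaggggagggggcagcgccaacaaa
Col4a2: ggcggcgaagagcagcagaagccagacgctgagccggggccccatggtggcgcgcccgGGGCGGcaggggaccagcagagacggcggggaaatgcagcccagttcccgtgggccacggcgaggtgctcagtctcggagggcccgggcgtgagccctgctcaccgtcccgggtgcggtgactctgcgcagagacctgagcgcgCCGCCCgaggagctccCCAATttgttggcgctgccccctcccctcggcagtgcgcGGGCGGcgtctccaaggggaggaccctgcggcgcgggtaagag
The Col4a1 window held 1 CCAAT and 1 GC box, and the Col4a2 window 1 CCAAT and 3 GC boxes. The GC box of Col4a1 lies in the shared bases and is the same site as the last of the 3 in Col4a2. Neither window held a TATAAA or an AP-1 match. The windows had 37 and 33 CG dinucleotides, where the median of all promoter windows was 7.0.

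Type VI collagen, the beaded microfibril of the pericellular matrix, gave like values on each of its probes. Col6a1 had 3 probes detected on both arrays. The brightest had 32315 with EMF+AuNPs and 35894 in Control, the next 25231 with EMF+AuNPs and 28348 in Control, and the dimmest 255.4 with EMF+AuNPs and 302.8 in Control. Their differences were -0.12, -0.16 and -0.23, all below 0, at -0.88, -1.13 and -0.61 robust SDs. Col6a2, the partner chain and chromosomal neighbour of Col6a1, had 5696 with EMF+AuNPs and 6271 in Control, a difference of -0.12. The 2 genes differed equally on their brightest probes, and the class median over these 2, without Col6a3, was -0.12.

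Of the 6 fibril-associated collagens named in the annotation, which leaves out Col12a1, 3 were detected, with a median of -0.39 and all below 0. Col14a1, which coats type I fibres and limits their lateral growth, had 1365 with EMF+AuNPs and 1825 in Control, a difference of -0.39 or 1.31-fold lower, with a robust SD of 0.20. Col9a2, a cartilage chain, was dim, with 226.1 with EMF+AuNPs and 286.8 in Control, a difference of -0.42 with a robust SD of 0.38. Col16a1, a chain found near basement membranes and in dermal microfibrils, was bright, with 13526 with EMF+AuNPs and 13640 in Control, and a difference of -0.02. The median of the class therefore rests on 1 probe each of Col14a1 and Col9a2. It was -0.26 without background correction and -0.03 when the chains not above background were counted too.

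**Figure D2:**
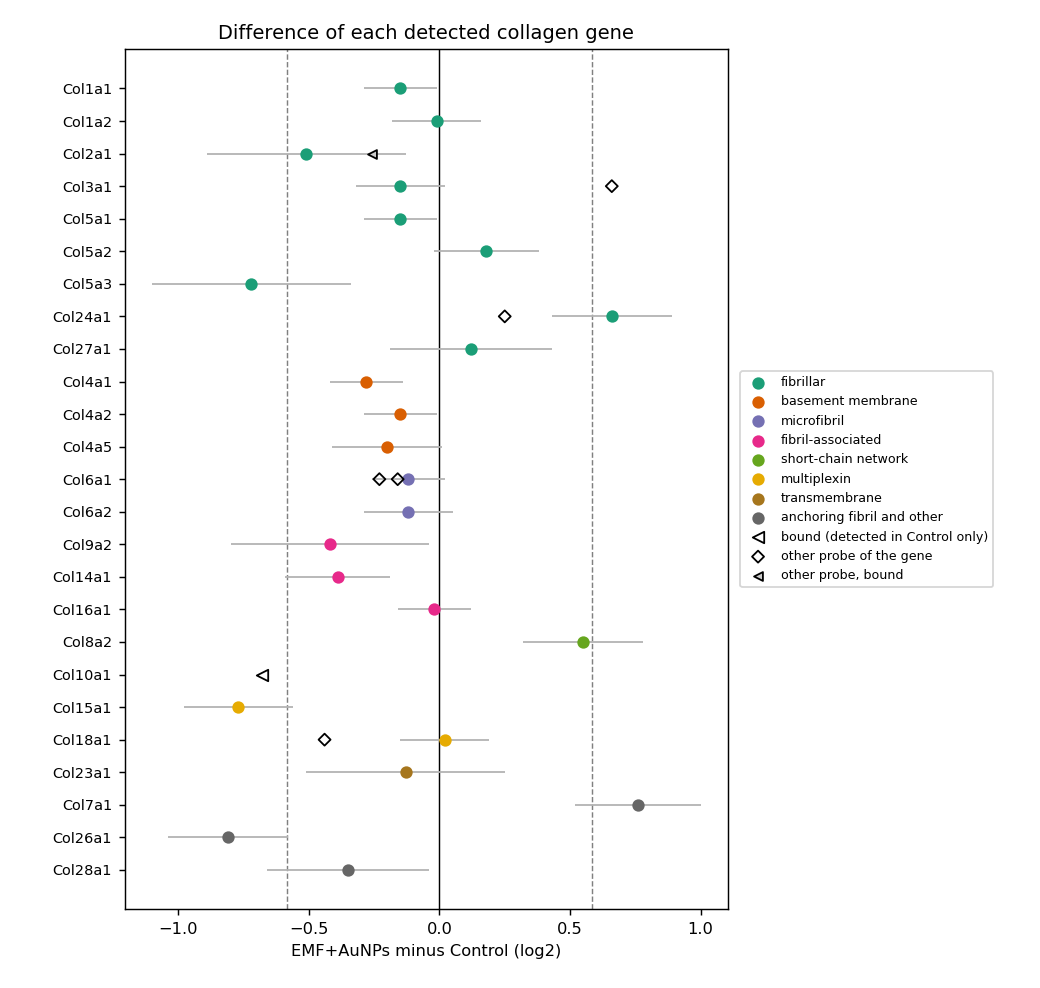
Log2 difference, EMF+AuNPs minus Control, of the 25 detected collagen genes on their brightest detected probe (coloured circles) and on other detected probes (open diamonds), with triangles for bounds. Bars span 1 robust SD of genes of like brightness and dashed lines mark 1.5-fold; Col26a1, Col15a1, Col5a3 and Col10a1 lie past it on the left and Col7a1 and Col24a1 on the right.

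The largest differences lay outside the 4 major classes. Col26a1, a chain first described in testis and ovary, had an intensity of 970.3 with EMF+AuNPs and 1692 in Control, a difference of -0.81 or 1.75-fold lower. Col15a1, a multiplexin of the zone between basement membrane and fibres, had 1368 with EMF+AuNPs and 2340 in Control, a difference of -0.77 or 1.70-fold lower. Both lay more than 3 robust SDs below 0 (-3.57 and -3.70), each on 1 probe. Col15a1 and Col26a1 passed 1.5-fold under all 11 settings in which they could be scored per gene, from -0.78 to -0.72 and from -0.82 to -0.75. Settings that change only the detection rule or average probes cannot move such genes, read on 1 probe detected on both arrays. Col10a1, the short-chain collagen of hypertrophic cartilage, had 164.1 with EMF+AuNPs, not detected, and 243.5 in Control. After background correction it was at least 1.60-fold lower. That bound depends on the correction: the limit of the difference was -0.35 without it, the deposited log2 values of the probe differed by -0.51, and 4 of its 10 settings gave a value under 1.5-fold.

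Col7a1, the chain of the fibrils that anchor epidermis to dermis, was the furthest above 0. It had 881.2 with EMF+AuNPs and 592.2 in Control, a difference of 0.76 or 1.69-fold higher, which is 3.09 robust SDs. It passed 1.5-fold in all 11 settings, some of which cannot move a gene with 1 detected probe. Its other probe, at 120.3 with EMF+AuNPs and 143.4 in Control, was not detected on either array. Col8a2, a short-chain network collagen of corneal and vascular matrix, had 1629 with EMF+AuNPs and 1187 in Control, a difference of 0.55 that stayed just under 1.5-fold. Col18a1, the multiplexin whose fragment is endostatin, had 9614 with EMF+AuNPs and 9599 in Control on its brightest probe (difference 0.02) and 366.0 with EMF+AuNPs and 491.0 in Control on a second (difference -0.44). The membrane-spanning chain Col23a1 had 254.4 with EMF+AuNPs and 286.8 in Control, and Col28a1, a chain of peripheral nerve matrix, had 182.9 with EMF+AuNPs and 215.0 in Control, which lay at -0.33 and -1.11 robust SDs. Among short-chain network collagens, Col8a2 and Col10a1 lay on opposite sides of 0.

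Promoter windows from RefSeq on GRCm38.p6 matched 30 of the 37 collagens, 20 of them detected. No entry matched Col1a1, Col2a1, Col5a2, Col4a3, Col9a3, Col14a1 or Col26a1. The windows of 4 of the genes past 1.5-fold are shown to set the sequences of lower and higher genes side by side, with motifs in capitals as above. Col15a1 (chr4:47207762-47208061, plus strand) and Col5a3 (chr9:20815018-20815317, minus strand) were lower, and Col7a1 (chr9:108953336-108953635, plus strand) and Col24a1 (chr3:145292222-145292521, plus strand) were higher.
Col15a1: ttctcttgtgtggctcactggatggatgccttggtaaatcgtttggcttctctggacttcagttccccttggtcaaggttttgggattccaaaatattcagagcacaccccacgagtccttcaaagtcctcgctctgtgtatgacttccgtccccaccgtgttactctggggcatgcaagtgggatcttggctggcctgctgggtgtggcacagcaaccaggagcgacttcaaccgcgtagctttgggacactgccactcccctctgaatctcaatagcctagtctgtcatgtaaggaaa
Col5a3: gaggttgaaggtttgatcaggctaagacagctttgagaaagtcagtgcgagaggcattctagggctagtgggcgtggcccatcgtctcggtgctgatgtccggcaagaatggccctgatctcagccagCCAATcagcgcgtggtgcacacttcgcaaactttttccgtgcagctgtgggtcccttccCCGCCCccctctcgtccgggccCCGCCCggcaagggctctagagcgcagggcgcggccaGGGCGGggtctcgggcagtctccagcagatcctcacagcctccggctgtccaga
Col7a1: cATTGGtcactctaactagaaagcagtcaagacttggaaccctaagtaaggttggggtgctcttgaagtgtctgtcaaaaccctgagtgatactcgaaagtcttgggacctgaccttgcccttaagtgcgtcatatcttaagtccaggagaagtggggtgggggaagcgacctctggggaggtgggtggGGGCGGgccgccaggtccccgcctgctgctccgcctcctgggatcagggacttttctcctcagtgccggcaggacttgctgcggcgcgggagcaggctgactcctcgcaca
Col24a1: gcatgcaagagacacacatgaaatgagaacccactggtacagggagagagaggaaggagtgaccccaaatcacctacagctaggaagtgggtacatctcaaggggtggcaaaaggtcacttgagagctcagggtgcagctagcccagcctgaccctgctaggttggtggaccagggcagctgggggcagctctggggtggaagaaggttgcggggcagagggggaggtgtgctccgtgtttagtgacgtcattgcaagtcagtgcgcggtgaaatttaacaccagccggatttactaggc
The letters searched for did not divide these 4 genes by direction. The window of Col10a1, lower by a bound, is not printed and held 1 TATAAA and no match of the other motifs. Col15a1, lower, and Col24a1, higher, held none of the 4 motifs, while Col5a3, lower, held 1 CCAAT and 3 GC boxes and Col7a1, higher, 1 CCAAT and 1 GC box. Of the 33 collagen windows, 60.6% held a GC box, 36.4% a CCAAT, 15.2% a TATAAA and 3.03% an AP-1 match. Over all 32851 windows of the table these shares were 35.7%, 37.4%, 13.6% and 7.81%. GC content had a median of 61.3% in the windows of detected collagens and 59.0% in those of undetected ones, and 52.7% over all windows. These matches are letters in a window and no evidence of binding.

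**Figure D3:**
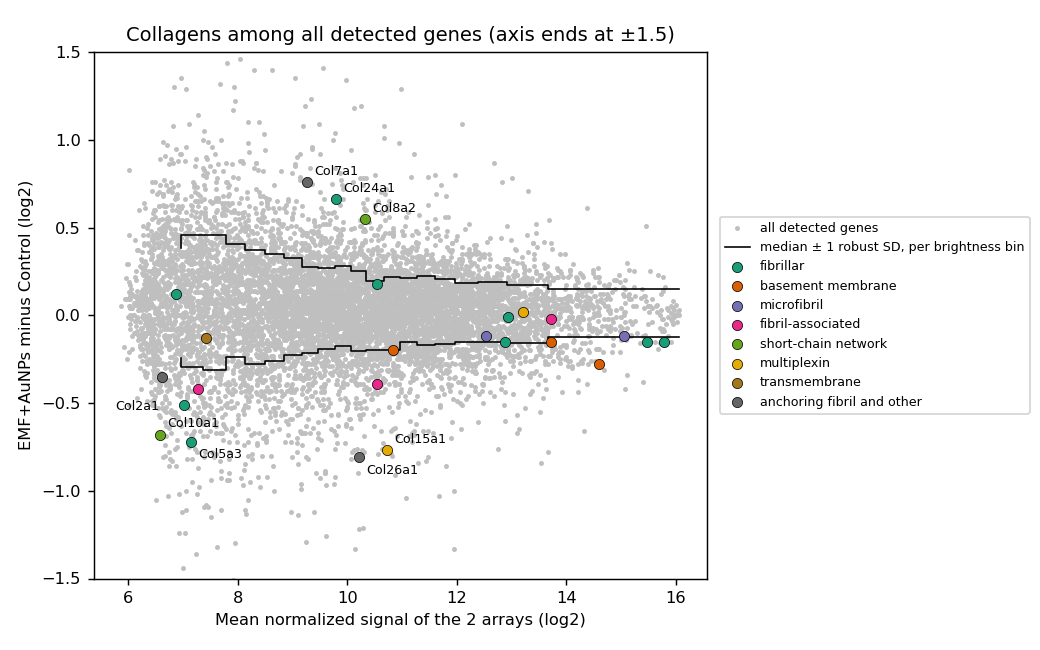
Log2 difference, EMF+AuNPs minus Control, against mean normalized signal for all 8651 detected genes (grey) and the 25 collagens (coloured by class), with lines at the median ± 1 robust SD of each brightness bin. The brightest collagens form a row just below 0, and the labelled genes lie at low or middle signal; genes beyond ±1.5 are off the axis.

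A collagen gene with several detected probes offers a check within each array. This was possible for 5 genes. Probes went the same way for Col2a1, Col6a1 and Col24a1, and opposite ways for Col3a1 and Col18a1. Over all 31 detected collagen probes the median difference was -0.15, with 23 below 0 and 8 above. Among the 28 collagen probes detected on neither array, 14 lay below 0 and 14 above, between -0.44 and 0.44.

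Genes that modify, secrete and process collagen were set beside the chains. The list of procollagen modification, folding and secretion had 19 detected genes, with a median of -0.13 and 15 below 0, where 44.0% of all detected genes lay below 0. Only Sec23a passed 1.5-fold lower, where 2.91% of all genes did, and 1 of 19 is near that share. It encodes a coat protein of the vesicles that carry procollagen from the endoplasmic reticulum, and had 1228 with EMF+AuNPs and 1916 in Control (-0.63). The collagen chaperone gene Serpinh1 had 13029 with EMF+AuNPs and 13176 in Control, a difference of -0.01. Genes of propeptide cleavage and cross-linking had a median of 0.07 over 7 genes, 0 of them past 1.5-fold. Lox, the cross-linking oxidase, had 49254 with EMF+AuNPs and 56141 in Control, a difference of -0.19.

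Genes of fibril binding, uptake and breakdown differed in both directions. Fibril-binding proteoglycans and organisers had a median of -0.04 over 18 genes, and of -0.12 with the mean over each gene's detected probes. Sparc, counted at 0.00 on a probe near the top of the scale, differed by -0.60 on its other probe. Of the 18 genes on their brightest probes, 1 passed 1.5-fold lower and 2 higher, where 2.91% and 3.34% of all detected genes did. Prelp differed by -0.67, and Podn and Comp, which encode a leucine-rich proteoglycan and a cartilage matrix protein, by 0.78 and 0.67. Prelp, a proteoglycan that anchors basement membranes, had 6982 with EMF+AuNPs and 11095 in Control. Of 9 collagen receptors and uptake genes, Ddr2, a tyrosine kinase receptor for fibrillar collagen, differed by 0.61 and Itgb1, the shared beta chain of collagen-binding integrins, by -0.59 (other probe -0.32). The values of Comp, Ddr2 and Itgb1 lay under 1.5-fold in at least 1 alternative setting. Of 11 collagen-degrading enzymes, 2 passed 2-fold higher, where 0.52% of all detected genes did. The collagenase gene Mmp13 had 3201 with EMF+AuNPs and 1418 in Control (1.29). A second probe lay close to the detection limit, with 185 with EMF+AuNPs and 175 in Control. It was detected with EMF+AuNPs alone, so its 0.08 is a bound. The mean of the difference and this bound, 0.69, is under 2-fold. The gelatinase gene Mmp9 had 460 with EMF+AuNPs and 269 in Control (1.22), and without background correction or in the deposited log2 values its difference of 0.87 is under 2-fold. The membrane-type protease gene Mmp16 was lower at -0.94, while Mmp2 and Mmp14 each differed by 0.26.

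The regulators of collagen transcription had a median of 0.15 over 17 detected genes. Only 1 passed 1.5-fold higher, where 3.34% of all detected genes did, and 1 of 17 is near that share. This was Scx, which encodes scleraxis, a transcription factor of tendon cells that acts on type I collagen genes. It had 1673 with EMF+AuNPs and 750 in Control, a difference of 1.34 or 2.54-fold higher, and ran from 1.22 to 1.35 over the settings. The type I chains themselves differed by -0.15 and -0.01.

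**Figure D4:**
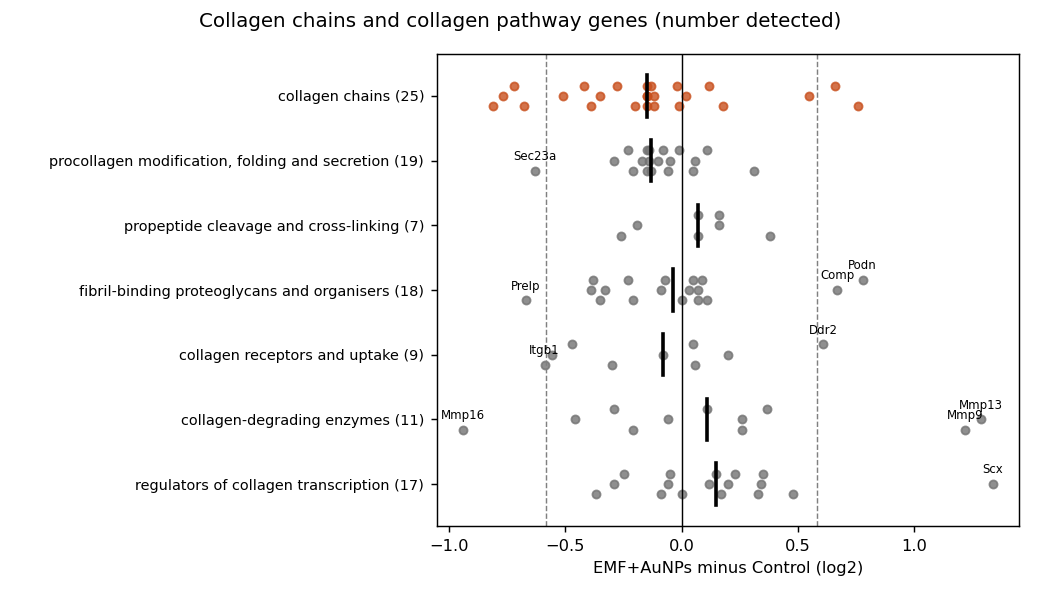
Log2 difference, EMF+AuNPs minus Control, of the detected collagen chains (orange) and of the detected genes in 6 lists of collagen pathway genes (grey), with a black bar at each median and dashed lines at 1.5-fold. The collagen chains and the procollagen modification list have medians of -0.15 and -0.13, and the named genes are those past 1.5-fold.

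The processing settings moved single genes more than the whole list. Over the 12 planned settings the median of the collagens ran from -0.17 to -0.09, and the direction of 21 of the 25 genes was the same in every setting that could score them. These settings are not independent. The deposited values repeat the setting without background correction, and other detection rules leave genes detected on both arrays as they were. The exceptions were Col1a2 and Col16a1, with differences of -0.01 and -0.02, and Col3a1 and Col18a1, whose probes disagreed. Col18a1 had 0.02 as reported and -0.21 with the mean of its detected probes.

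**Figure D5:**
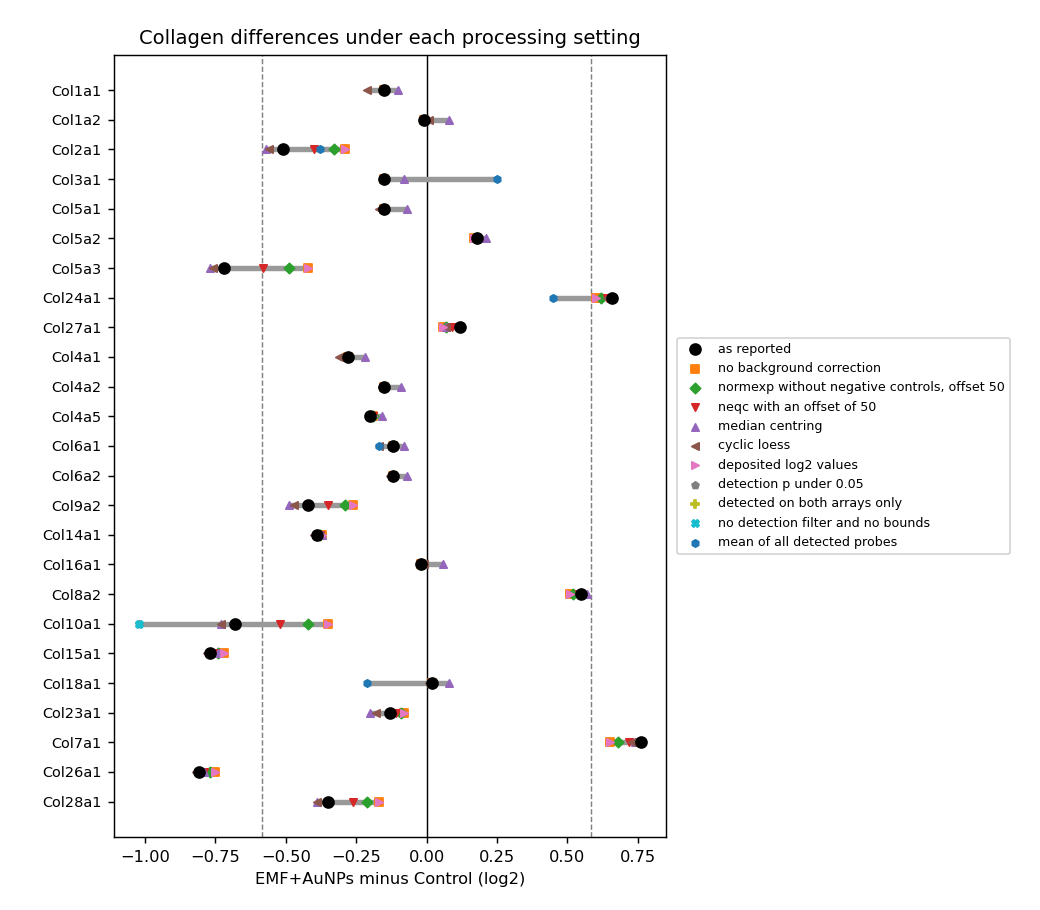
Log2 difference, EMF+AuNPs minus Control, of each detected collagen gene under the 11 settings that give 1 value per gene, with the reported value in black and the grey bar spanning all settings. Col15a1, Col26a1 and Col7a1 stay past the dashed 1.5-fold lines, and Col5a3, Col10a1 and Col24a1 cross them.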

How the data were processed

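Per the labels' protocols, Trizol was used for total RNA and the TotalPrep kit for biotinylated cRNA. The submitters' processing notes name GenomeStudio 2011.1. As files, the authors deposited signal intensity values, not normalized between arrays, with a detection p-value beside each, per the file headers. The authors also deposited log2 values, which equalled the quantile normalized log2 intensities to within 5e-07. Other steps before deposit are not given in the sources used here.

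Background correction and quantile normalization used neqc (limma 3.58.1, R 4.3.3; offset 16). Each gene is represented by its brightest probe detected (p under 0.01) on at least 1 array. A gene with signal above background on 1 array only is given by a bound, set against the higher of the dim value and the lowest detected value of that array. Robust SDs come from 20 bins of brightness. The steps were tested on simulated arrays. Symbols came from the platform annotation, which named 23978 of 25697 probes. The members, lists and the naming rule (every collagen, and pathway genes past 1.5-fold, at most 4 a list) were chosen with earlier results of these data known, and a few unchanged pathway and marker genes were named after their values were seen. No comparison had a replicate. Alternatives covered background correction, offset, normalization, detection limit and probe choice. Figures used matplotlib 3.10.9.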

Additional observations from a re-analysis of the deposited data

How the results depend on the processing

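The 1.5-fold calls of dim collagens depended on background correction. The count of lower collagens was 4 as reported and 2 without background correction, in the deposited log2 values, with normexp without negative controls and with neqc at an offset of 50. Col5a3 and Col10a1 then fell under the limit, by construction of a larger floor under dim probes. The share of all detected genes past the limit fell too, from 2.91% to 1.6%, 1.6%, 1.91% and 2.25% in the same order. Averaging all detected probes left 1 higher collagen, Col7a1, where 3.17% of all detected genes were higher, and moved the fibrillar median to -0.01. The same averaging moved the median of collagen receptors and uptake from -0.08 to -0.30. The fibril-associated median was -0.26 without background correction and in the deposited values, -0.21 at a detection p under 0.05 and -0.03 with no detection filter. That last setting also turned the medians of collagen receptors and uptake to 0.05 and of collagen-degrading enzymes to -0.06. For these 2 lists it leaves the values of the detected genes as they were and adds the genes detected on neither array. Leaving out Col3a1, an alternative chosen after seeing the data, kept both counts of calls and moved the fibrillar median to -0.08. Of 409 values of single genes and pathway lists under alternatives, 397 moved by less than the robust SD (genes) or 0.1 (lists). Part of this agreement was fixed in advance. The deposited values repeat the setting without background correction, and other detection rules leave genes detected on both arrays as they were. Averaging probes cannot move a gene with 1 detected probe. Median centring and cyclic loess kept the counts at 4 lower and 2 higher. Of all detected genes, 3.31% were lower under each, and 2.8% and 2.7% higher. The median of all detected genes ran from 0.014 to 0.045. No paired analysis was possible because each condition has 1 array. Signal over background limits what can be said of Col2a1, Col5a3, Col9a2, Col10a1, Col23a1, Col27a1 and Col28a1, whose probes lie close to the detection limit.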
